A study of Mus musculus with 14 samples.

Results

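The genes described here encode proteins that bind or regulate microtubules in growing neurons, and their expression was measured in hippocampus and heart of C57BL/6 mice on Affymetrix mouse genome arrays. They are the 10 genes Dcx, Mapt, Map2, Map1b, Stmn1, Stmn2, Crmp1, Dpysl3, Dpysl5 and Dclk1. Every probe set annotated with only 1 of these 10 genes was taken, which gave 34 of the 45037 probe sets tested, and each was kept apart because probe sets of 1 gene did not always behave alike. No probe set named a member together with another gene. The study compared a brain with a non-brain tissue, and pups with adults. The groups were adult hippocampus and adult heart from mice of 10 weeks, labelled male, with 2 biological replicates of 2 technical arrays per tissue, and pup hippocampus and pup heart from mice of 7 days, with 3 biological replicates of 1 array per tissue. All animals were untreated and of the strain C57BL/6, and the sex of the pups was not given. Adult RNA was purchased (mRNA in the labels, total RNA in the methods, where it comes from a single male mouse), whereas pup mRNA was isolated from dissected tissue, so age cannot be told apart from RNA source and preparation. Titles number the adult arrays as 2 biological replicates with 2 technical arrays each, whereas the source names number the same arrays as 4 biological replicates, and the titles were followed here. The labels do not say that the adult replicates are separate animals, and p-values then describe only how far these samples lay apart, and that spread may be technical.

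Microtubules give an axon or dendrite its shape and its tracks for transport. Doublecortin (Dcx) and its relative doublecortin-like kinase 1 (Dclk1) stabilize microtubules of migrating neurons, and Dcx is widely used as a marker of newborn neurons of the dentate gyrus. Tau (Mapt), Map2 and Map1b are structural microtubule-associated proteins, with tau known for axons, Map2 for dendrites and Map1b for growing axons. Stathmins (Stmn1, Stmn2) bind tubulin dimers and favour microtubule disassembly, and the collapsin response mediator proteins (Crmp1, Dpysl3, Dpysl5) carry semaphorin signals to the cytoskeleton of the growth cone.

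Promoter windows from 250 bases before to 50 bases after an annotated start were held by the RefSeq table (GRCm38.p6) for 6 of the 10 genes, in 9 windows. Shown here are Dcx and Dclk1, the related pair in which a single probe set of each gene fell with age, with both annotated starts of Dclk1, and Map1b, the gene with a probe set that rose with age in hippocampus. Capitals mark matches to the motifs searched on both strands, which were the E-boxes CAGCTG and also CAGATG, the Sox motifs AACAAAG and also AACAATG, the POU octamer ATGCAAAT, the cAMP response element TGACGTCA and the TATA box motif TATAAA. No 2 matches overlapped in the windows printed.
Dcx, chrX:143933075-143933374, minus strand: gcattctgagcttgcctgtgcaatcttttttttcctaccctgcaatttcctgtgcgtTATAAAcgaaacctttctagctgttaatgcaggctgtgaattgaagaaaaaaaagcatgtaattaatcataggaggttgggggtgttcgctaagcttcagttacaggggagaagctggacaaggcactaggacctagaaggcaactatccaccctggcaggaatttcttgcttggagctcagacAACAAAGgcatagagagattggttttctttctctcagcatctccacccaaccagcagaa
Dclk1, upstream start, chr3:55242114-55242413, plus strand: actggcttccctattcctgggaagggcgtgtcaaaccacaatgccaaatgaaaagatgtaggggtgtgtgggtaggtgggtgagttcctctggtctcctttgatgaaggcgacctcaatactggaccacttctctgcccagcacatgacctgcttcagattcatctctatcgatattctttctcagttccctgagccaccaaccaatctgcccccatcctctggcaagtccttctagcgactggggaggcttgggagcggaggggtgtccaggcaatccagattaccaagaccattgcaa
Dclk1, downstream start, chr3:55461478-55461777, plus strand: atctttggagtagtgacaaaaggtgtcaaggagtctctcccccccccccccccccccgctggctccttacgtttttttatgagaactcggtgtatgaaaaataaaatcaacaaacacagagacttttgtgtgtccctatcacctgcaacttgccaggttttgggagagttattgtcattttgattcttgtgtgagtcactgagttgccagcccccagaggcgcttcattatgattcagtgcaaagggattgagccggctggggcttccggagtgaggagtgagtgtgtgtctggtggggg
Map1b, chr13:99516553-99516852, minus strand: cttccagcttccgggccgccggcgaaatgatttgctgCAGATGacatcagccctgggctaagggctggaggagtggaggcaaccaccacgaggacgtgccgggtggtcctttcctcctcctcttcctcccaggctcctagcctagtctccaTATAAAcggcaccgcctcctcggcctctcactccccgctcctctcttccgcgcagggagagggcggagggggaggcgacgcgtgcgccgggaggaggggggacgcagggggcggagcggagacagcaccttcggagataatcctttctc
In the Dcx window TATAAA began at position -193 and AACAAAG at position -9 from the start, and the window of the other annotated Dcx start overlapped this one and held the TATAAA at -98. In the Map1b window CAGATG began at -213 and TATAAA at -99. TATAAA was present in 3 of the 9 member windows, those of Dcx and Map1b, and in 13.6% of the 32851 promoter windows, AACAAAG in 5.85% and CAGATG in 17.2%. CAGCTG (16.3% of all windows), ATGCAAAT (1.74%) and TGACGTCA (1.79%) had no match in the 9 member windows, and AACAATG (3.78%) matched Dpysl5 at -128. Neither Dclk1 window held any of the motifs. The probe sets were not placed on transcripts or starts here, so none can be assigned to either Dclk1 start.

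Values are log2 expression, and arrays of a group correlated across probe sets with r of 0.931 to 0.968. Per array the median lay between 8.73 and 8.98 and the highest value near 16, so values above about 15 are close to the upper limit of the scale and folds against them are not exact. Detection calls were not used, so low values were not compared with background. The 18 probe sets of the hybridization controls averaged 10.80 in adult hippocampus and 13.15 in pup hippocampus, and 10.73 in adult heart and 13.16 in pup heart. Adult and pup arrays thus differed in these controls in both tissues, and age cannot be told apart from this difference either. Of 10 markers of heart muscle cells, 8 were lower in adult hippocampus than in adult heart (10.7% of all genes were lower) and 9 in pup hippocampus than in pup heart (7.27%), as the tissue labels say. Their mean level was 9.04 and 9.16 in adult hippocampus and uneven among the pup hippocampus samples, at 11.28, 10.39 and 9.48 in replicates 1, 2 and 3.

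Between adult and pup hippocampus, 12 of the 34 probe sets fell in the limma test, 1 (a Map1b probe set) rose and 21 did not pass, and 9 of the 10 genes had at least 1 probe set that fell. Over all probe sets tested 6.52% were lower and 8.38% higher in this comparison, 14.9% in either direction. The falls spanned 2.74-fold to 20.6-fold. Adult and pup samples did not overlap for any of the 12, which were picked by the test on these same samples. The groups did not overlap for 25 of the 34 probe sets and for 54.4% of all probe sets. The median difference was -0.28 over the 34 and 0.12 over all probe sets. In bulk tissue, fewer cells of a type and less RNA per cell cannot be told apart.

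**Figure D1:**
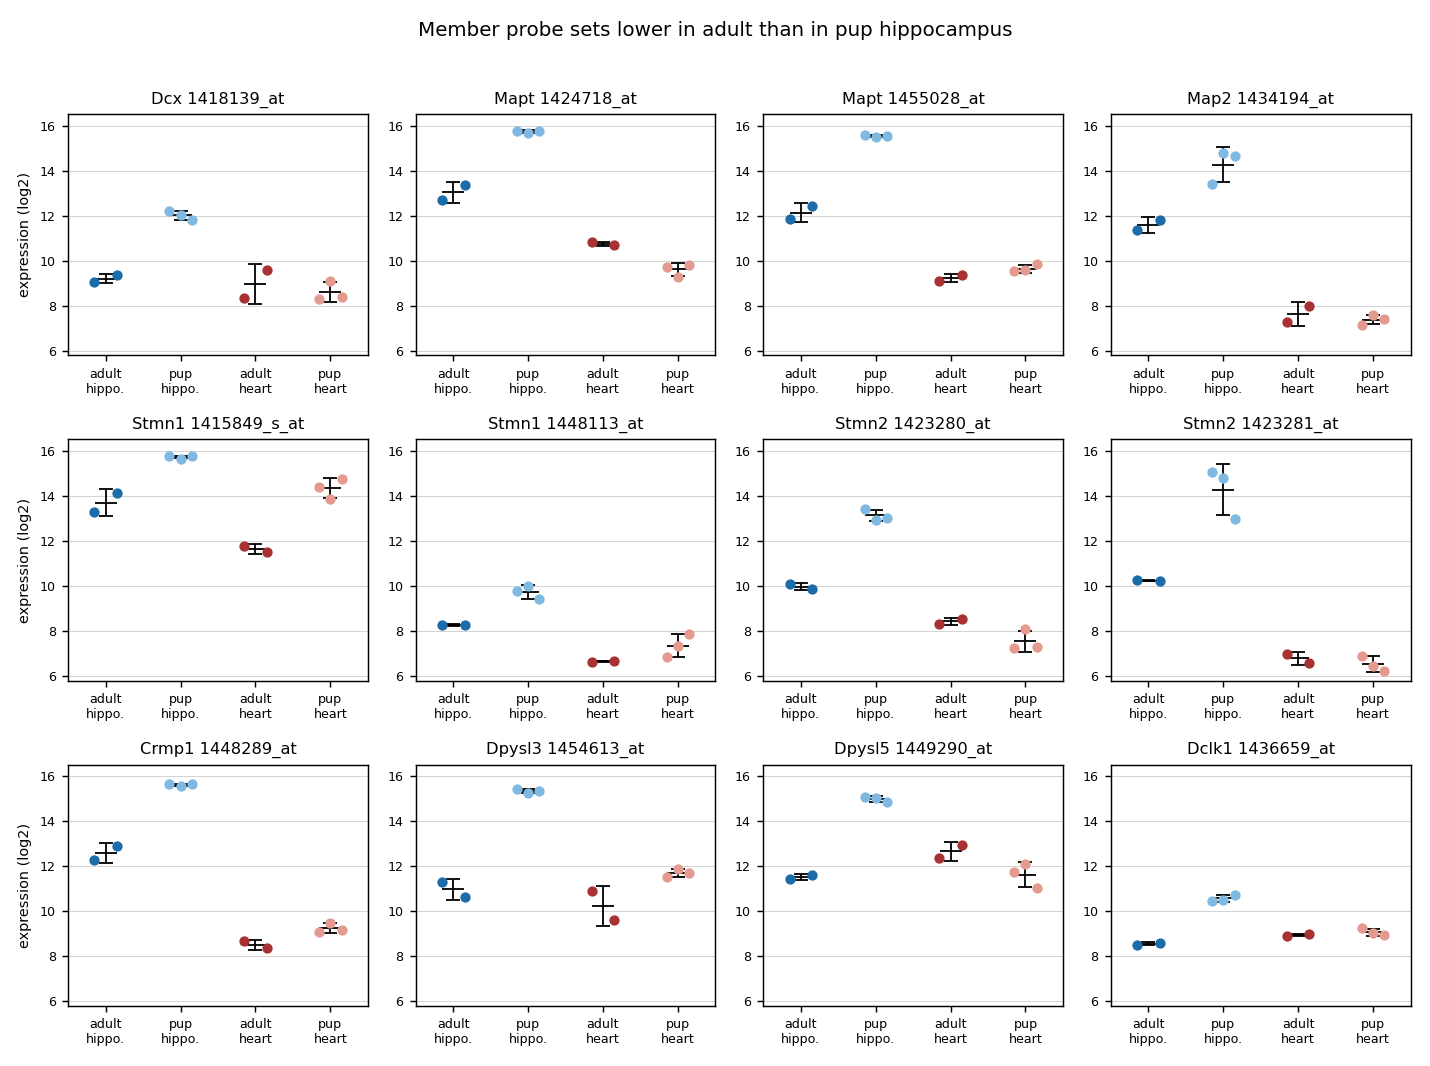
Expression (log2, y axis) of the 12 probe sets that were lower in adult than in pup hippocampus, with 1 point per biological sample and the 4 groups along the x axis, and black bars for mean ± SD (n = 2 adult, n = 3 pup). In every panel the 3 pup hippocampus samples lie above both adult hippocampus samples, for example at 15.42, 15.26 and 15.31 against 11.30 and 10.64 for Dpysl3.

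All 3 collapsin response mediator genes had a probe set that fell. For Dpysl3, probe set 1454613_at had values of 11.30 and 10.64 in adult hippocampus, against 15.42, 15.26 and 15.31 in pup hippocampus. The adult level was 20.6-fold lower (difference -4.36, SE 0.36, adjusted p = 0.00044), although the technical arrays of adult replicate 1 lay 2.60 apart, at 12.60 and 10.01. The other probe sets of Dpysl3 did not pass: 1415877_at differed by -1.21 (adjusted p = 0.0504) and 1438789_s_at by 0.36. Dpysl5 (1449290_at) had values of 11.44 and 11.63 in adult hippocampus, against 15.06, 15.03 and 14.83 in pup hippocampus. It was 10.9-fold lower in adults (SE 0.34, adjusted p = 0.000666), with both adult samples, averaged over technical arrays, more than 3 units under every pup sample. The technical arrays of adult replicate 2 lay 1.26 apart, at 10.99 and 12.26. Probe set 1441246_s_at of Dpysl5 differed by -0.41 without passing. Crmp1, measured by 1 probe set, had values of 12.26 and 12.89 in adult hippocampus, against 15.65, 15.57 and 15.63 in pup hippocampus, and was 8.24-fold lower (SE 0.27, adjusted p = 0.000477). All 3 pup samples lay close together and above both adult samples.

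Both stathmins fell on both of their probe sets. Stmn2, the neuronal stathmin of growth cones, had values of 10.25 and 10.21 in adult hippocampus, against 15.05, 14.80 and 12.97 in pup hippocampus, on probe set 1423281_at (16.4-fold lower, SE 0.54, adjusted p = 0.00226). Pup replicate 3 was the low one of its group and still lay above both adult samples. On probe set 1423280_at the values were 10.08 and 9.86 in adult hippocampus, against 13.42, 12.93 and 13.04 in pup hippocampus (8.93-fold lower, SE 0.30, adjusted p = 0.000651). Stmn1, the stathmin of dividing and immature cells, fell 4.08-fold on 1415849_s_at (adjusted p = 0.00522), with 13.27 and 14.12 in adult hippocampus, against 15.77, 15.66 and 15.75 in pup hippocampus. A probe set with the suffix s can match transcripts of several genes. On 1448113_at Stmn1 had 8.28 and 8.25 in adult hippocampus, against 9.77, 9.99 and 9.41 in pup hippocampus (2.74-fold lower, adjusted p = 0.0161). This call ended without adult replicate 1, without adult replicate 2 or without pup hippocampus replicate 2, and that of 1415849_s_at without adult replicate 1.

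The structural proteins did not move together. Tau fell on 2 of its 4 probe sets. On 1455028_at the values were 11.83 and 12.44 in adult hippocampus, against 15.58, 15.49 and 15.56 in pup hippocampus, a level 10.6-fold lower (SE 0.25, adjusted p = 0.000253). On 1424718_at they were 12.70 and 13.37 in adult hippocampus, against 15.77, 15.65 and 15.78 in pup hippocampus (6.52-fold lower, SE 0.27, adjusted p = 0.00078). By contrast 1424719_a_at differed by 0.12 (adjusted p = 0.893), with overlapping groups, and 1417885_at by -1.20 (adjusted p = 0.068). Map2 fell on 1 of 4 probe sets: 1434194_at had values of 11.35 and 11.83 in adult hippocampus, against 13.40, 14.76 and 14.65 in pup hippocampus (6.43-fold lower, SE 0.42, adjusted p = 0.00434), a call that ended without adult replicate 1. Pup replicate 1 was the low sample there. Its probe set 1421328_at read 15.37 and 14.94 in adult hippocampus and 15.33, 15.22 and 15.27 in pup hippocampus, and nearly as much in heart, at 14.83 and 14.73 in adults and 15.28, 15.27 and 15.25 in pups. Values of 1421328_at near 15 are close to the upper limit of the scale, so a difference on this probe set may not show. The remaining Map2 probe sets, 1421327_at and 1440699_at, differed by 0.37 and 0.50 without passing. Both were dim. Their means were 7.42 and 7.57 in adult hippocampus (lower quartile of its arrays 7.61), and 7.05 and 7.08 in pup hippocampus (lower quartile 7.51).

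Map1b rose on 1 of its 3 probe sets. Probe set 1421851_at had values of 9.70 and 9.86 in adult hippocampus, against 7.78, 8.01 and 8.36 in pup hippocampus, a level 3.31-fold higher (SE 0.32, adjusted p = 0.00807). The call ended when either adult hippocampus replicate was left out, with differences between 1.59 and 1.89 over all alternatives. The other probe sets, 1421850_at and 1450397_at, differed by 0.22 and -0.15 without passing.

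Of the doublecortins, a single probe set of each gene fell. Dcx fell on 1418139_at, with values of 9.07 and 9.36 in adult hippocampus, against 12.22, 12.03 and 11.81 in pup hippocampus (6.98-fold lower, SE 0.39, adjusted p = 0.0026). Its 3 other probe sets, 1418140_at, 1418141_at and 1448974_at, lay on the other side of 0, with differences of 0.47, 0.34 and 0.76 (adjusted p = 0.458, 0.697 and 0.0854). On 1418140_at the technical arrays of both adult hippocampus replicates lay over 1 unit apart, at 14.20 and 13.12 for replicate 1 and 12.68 and 13.93 for replicate 2. Dclk1 fell on 1 of 9 probe sets, 1436659_at, with values of 8.51 and 8.60 in adult hippocampus, against 10.46, 10.50 and 10.72 in pup hippocampus (4.02-fold lower, SE 0.22, adjusted p = 0.00104). The 8 other probe sets of Dclk1 differed by between -0.96 and 0.82 without passing.

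**Figure D2:**
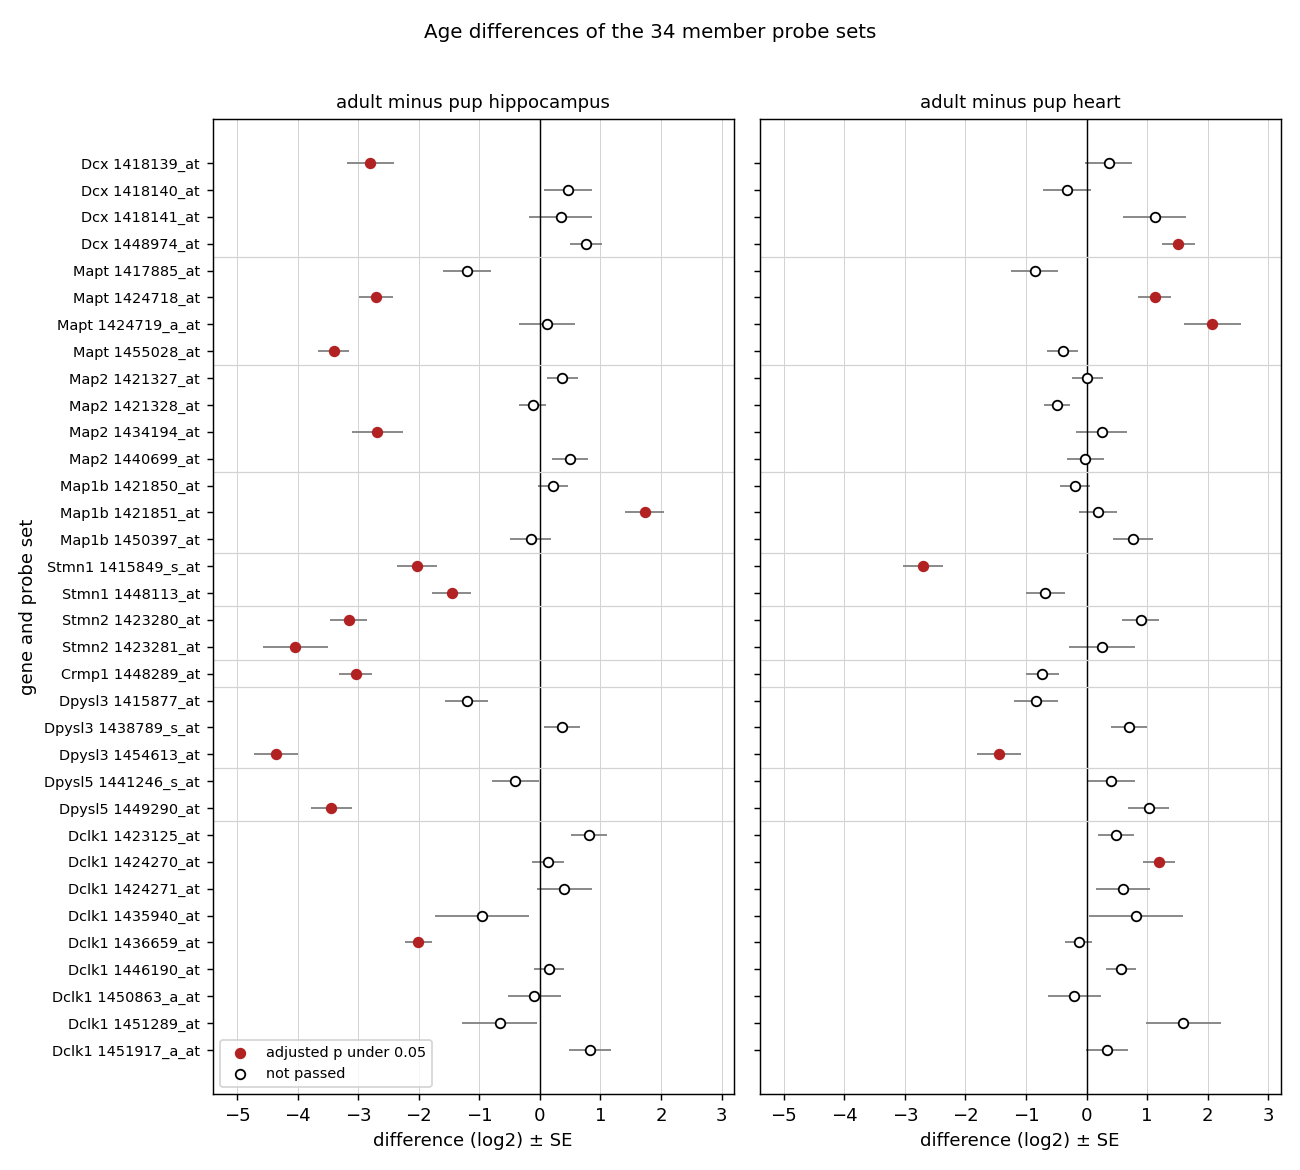
Difference between adult and pup (log2, x axis) for each of the 34 probe sets (y axis, ordered by gene), in hippocampus (left) and heart (right), with bars for ± SE of limma and filled points where the adjusted p was under 0.05. In hippocampus 12 filled points lie left of 0 and 1, of Map1b, lies right of it, and in heart 2 lie left and 4 right.

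The disagreement between probe sets of Dcx and Mapt extended to the tissues. Dcx 1418139_at was 10.7-fold higher in pup hippocampus, with values of 12.22, 12.03 and 11.81, than in pup heart, with 8.29, 9.11 and 8.41 (adjusted p = 0.000142). Dcx 1418140_at had values of 13.05, 13.04 and 12.95 in pup hippocampus, against 13.40, 11.85 and 12.93 in pup heart, and the groups overlapped (difference 0.28, adjusted p = 0.666). Dcx 1448974_at even ran higher in adult heart, with 9.30 and 9.89 in adult hippocampus, against 10.56 and 10.65 in adult heart (2.02-fold lower in hippocampus, adjusted p = 0.0343), a call that ended in 4 of the 10 fits with a sample left out. For Mapt, the level in pup hippocampus was 69.1-fold that of pup heart on 1424718_at, 59.4-fold on 1455028_at and 16.2-fold on 1424719_a_at. Mapt 1417885_at had values of 12.47, 12.75 and 12.24 in pup hippocampus, against 11.86, 12.98 and 11.59 in pup heart, a difference of 0.35 that did not pass (adjusted p = 0.58).

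**Figure D3:**
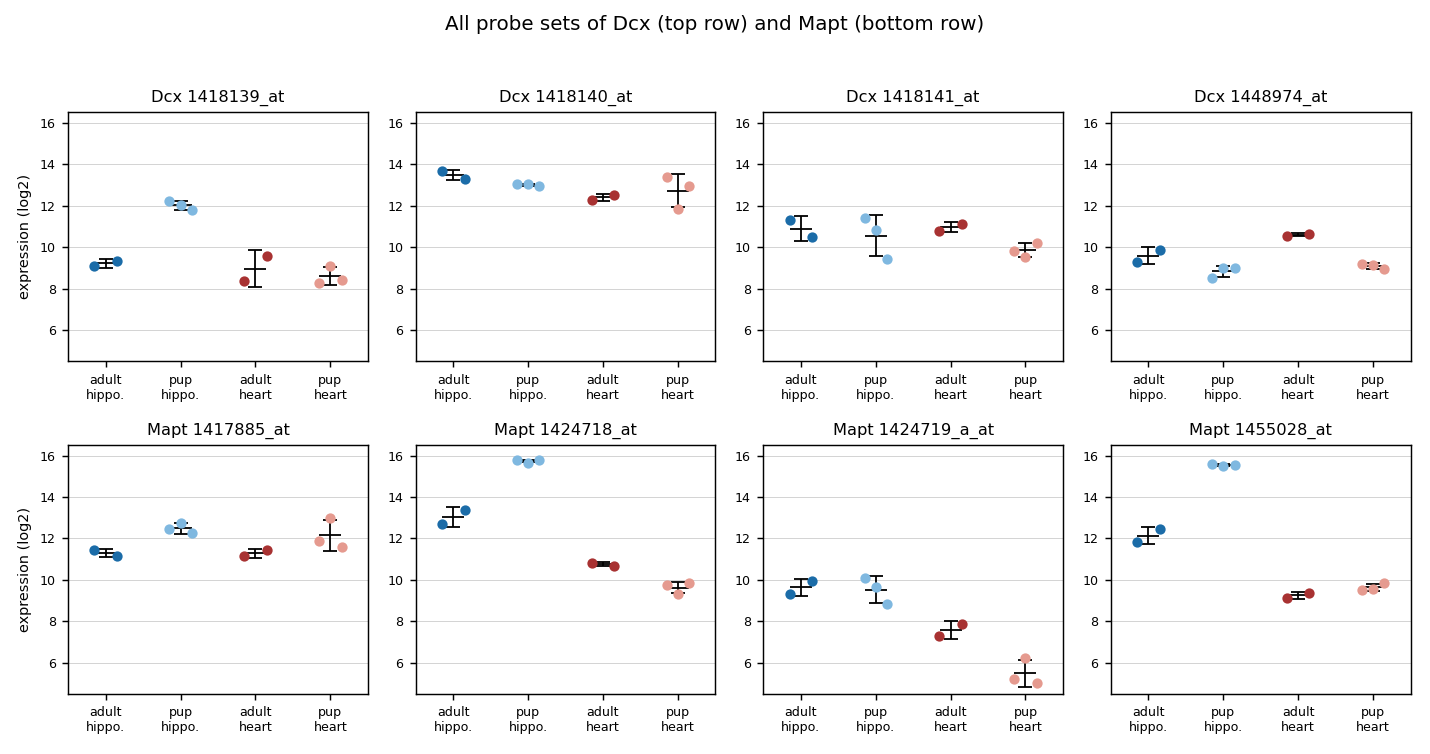
Expression (log2, y axis) on the 4 probe sets of Dcx (top) and the 4 of Mapt (bottom) with 1 point per biological sample and the 4 groups along the x axis, and black bars for mean ± SD (n = 2 adult, n = 3 pup). Of the 8 probe sets, Dcx 1418139_at and Mapt 1424718_at and 1455028_at have all 3 pup hippocampus samples above every other sample.

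Between pup tissues, 15 of the 34 probe sets were higher in hippocampus than in heart and 0 were lower, and each of the 10 genes had at least 1 that was higher (7.52% of all probe sets were higher and 6.77% lower, 14.3% in either direction). The groups did not overlap for 20 of the 34, against 30.7% of all probe sets, and the median difference was 0.81, against -0.10 over all. The 12 probe sets that fell in adult hippocampus were all among these 15. Both comparisons use the same pup hippocampus samples, which favours such an overlap. The others of the 15 were Mapt 1424719_a_at, Map1b 1450397_at (2.74-fold higher, adjusted p = 0.00979) and Dclk1 1450863_a_at (3.95-fold higher, adjusted p = 0.00814). Stmn2 1423281_at had 15.05, 14.80 and 12.97 in pup hippocampus, against 6.91, 6.47 and 6.21 in pup heart (214-fold, SE 0.48, adjusted p = 7.02e-06). Map2 1434194_at had 13.40, 14.76 and 14.65 in pup hippocampus, against 7.16, 7.58 and 7.42 in pup heart (118-fold, adjusted p = 3.43e-06). For both of these probe sets the pup heart values lay below 7.59, the lower quartile of pup heart arrays, so the folds rest on dim values. Crmp1 was 83.1-fold higher in pup hippocampus. Stmn1 had 9.77, 9.99 and 9.41 in pup hippocampus, against 6.83, 7.34 and 7.85 in pup heart, on 1448113_at (5.22-fold, adjusted p = 0.000363). On Stmn1 1415849_s_at the values were 15.77, 15.66 and 15.75 in pup hippocampus, against 14.41, 13.87 and 14.77 in pup heart (2.6-fold, adjusted p = 0.0126), with the pup hippocampus samples close to the upper limit of the scale.

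In adults, 12 probe sets were higher in hippocampus than in heart, 2 (Dcx 1448974_at and Dclk1 1451289_at) were lower and 20 did not pass (10.3% of all probe sets were higher and 11.9% lower, 22.2% in either direction). The groups did not overlap for 26 of the 34, against 68.4% of all probe sets, and the median difference was 0.45, against -0.06 over all. The 12 that fell with age split into those that still differed from heart and those that did not pass. Of these 12, 8 remained higher in adult hippocampus than in adult heart: both probe sets of Stmn1, both of Stmn2, 2 of Mapt, Map2 1434194_at and Crmp1. The call of Stmn1 1448113_at ended without any 1 of the 4 adult samples, and that of Stmn2 1423280_at without adult hippocampus replicate 1 or adult heart replicate 1. Crmp1 had 12.26 and 12.89 in adult hippocampus, against 8.67 and 8.35 in adult heart (16.7-fold, SE 0.29, adjusted p = 9.59e-05), and Map2 1434194_at had 11.35 and 11.83 in adult hippocampus, against 7.27 and 8.0 in adult heart (15.5-fold, adjusted p = 0.000574). The 4 that did not pass between adult tissues were those of Dcx, Dpysl3, Dpysl5 and Dclk1. Dcx 1418139_at had 9.07 and 9.36 in adult hippocampus, against 8.34 and 9.59 in adult heart, so the tissues overlapped (difference 0.25, SE 0.43, adjusted p = 0.729). Dpysl3 1454613_at had 11.30 and 10.64 in adult hippocampus, against 10.88 and 9.62 in adult heart (difference 0.72, SE 0.40, adjusted p = 0.231). For Dclk1 1436659_at the values were 8.51 and 8.60 in adult hippocampus, against 8.90 and 8.97 in adult heart (difference -0.38, adjusted p = 0.301). For Dpysl5 1449290_at both adult hippocampus samples, at 11.44 and 11.63, lay below both adult heart samples, at 12.35 and 12.94 (difference -1.11, adjusted p = 0.0563). Map1b 1421851_at, which rose with age, was 4.46-fold higher in adult hippocampus, at 9.70 and 9.86, than in adult heart, at 7.37 and 7.87 (adjusted p = 0.00248). The other calls higher in adult hippocampus were those of Mapt 1424719_a_at and Dclk1 1450863_a_at, which both ended without adult hippocampus replicate 2 or adult heart replicate 1, and of Map1b 1421850_at, which ended in 7 of the 10 fits with a sample left out. The lower call of Dclk1 1451289_at (9.84 and 9.67 in adult hippocampus, against 12.47 and 11.58 in adult heart) ended without any 1 of the 4 adult samples, with the first technical array alone and with the replicate number as a block. With any adult sample left out, a single sample remained in its group. Fewer member probe sets were then called between adult tissues, and fewer of all probe sets too.

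**Figure D4:**
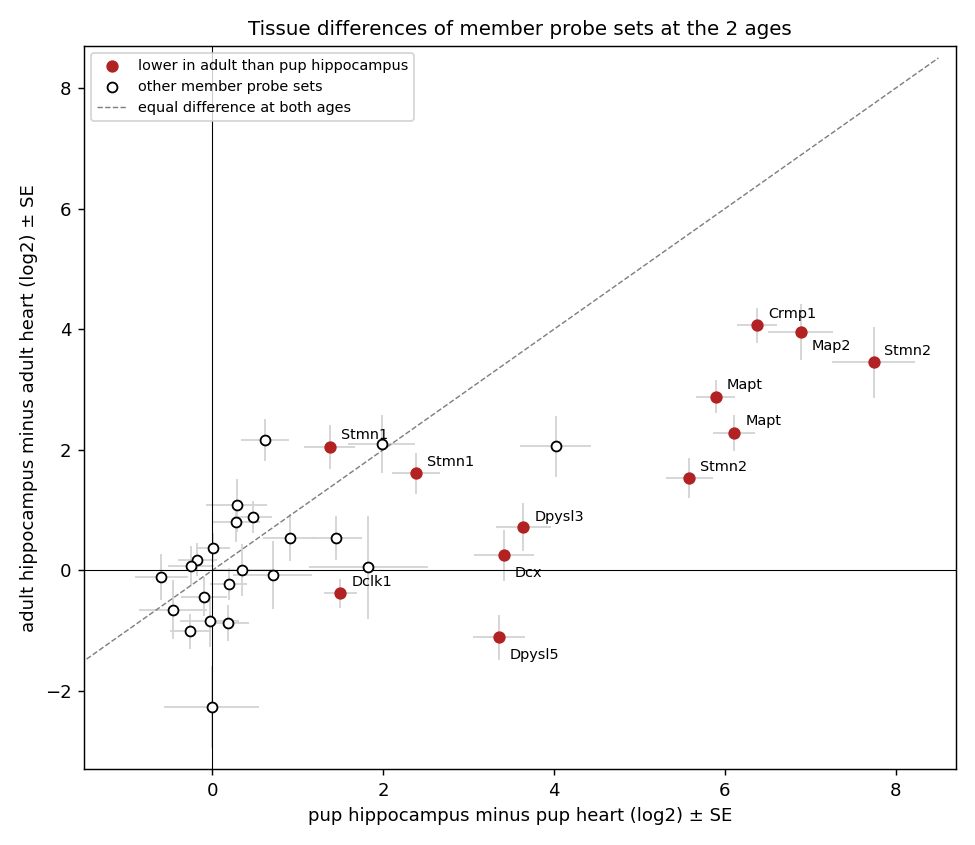
Difference between hippocampus and heart (log2) in pups (x axis) and in adults (y axis) for each of the 34 probe sets, with bars for ± SE of limma and filled, named points for the 12 that fell in adult hippocampus. The points of Crmp1, Map2, Mapt, Stmn1 and Stmn2 lie above 1.5 on the adult axis, and those of Dcx, Dpysl3, Dclk1 and Dpysl5 lie between 0.72 and -1.11 there.

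The order of the 4 groups differed between genes. For Crmp1 it was pup hippocampus (15.61 ± 0.04), adult hippocampus (12.57 ± 0.45), pup heart (9.24 ± 0.22) and adult heart (8.51 ± 0.23), and the heart groups did not differ past the threshold (SD, n = 3 pup and n = 2 adult). For Stmn1 1415849_s_at, pup heart (14.35 ± 0.45) stood next to adult hippocampus (13.70 ± 0.60), a pair that was not tested, with pup hippocampus above (15.72 ± 0.06) and adult heart below (11.64 ± 0.21). For Dpysl5 1449290_at, pup hippocampus (14.97 ± 0.13) was followed by adult heart (12.65 ± 0.42), pup heart (11.62 ± 0.56) and adult hippocampus (11.53 ± 0.13), and among the lower groups no tested pair passed. For Dcx 1418139_at only pup hippocampus (12.02 ± 0.21) stood apart from adult hippocampus (9.21 ± 0.20), adult heart (8.96 ± 0.88) and pup heart (8.60 ± 0.44).

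With age in heart, few of the probe sets passed the test. Of the 34 probe sets 2 fell, 4 rose and 28 did not pass, a share of 17.6% called, against 20.0% of all probe sets (8.32% lower and 11.7% higher), so the share was near the background. The groups did not overlap for 19 of the 34, against 48.2% of all probe sets. With either adult heart replicate left out, a single sample remained in its group. Fewer member probe sets were then called, and fewer of all probe sets too. Stmn1 1415849_s_at fell 6.52-fold, with values of 11.79 and 11.49 in adult heart, against 14.41, 13.87 and 14.77 in pup heart (SE 0.33, adjusted p = 0.00115), and its second probe set differed by -0.68 without passing. Markers of dividing cells were lower in 3 of 9 genes and higher in 0 (9.70% of all genes were lower and 10.9% higher), with a mean level of at most 8.12 in adult heart, against at least 8.91 in pup heart, and their part in the Stmn1 result was not tested. Dpysl3 1454613_at had values of 10.88 and 9.62 in adult heart, against 11.52, 11.85 and 11.71 in pup heart (2.72-fold lower, adjusted p = 0.0217), a call that ended without adult heart replicate 2 and with either technical array alone. Fibroblast markers were lower in 5 of 8 genes there, at 10.37 to 10.40 in adult heart, against 12.54 to 13.17 in pup heart, and their part in the Dpysl3 result was not tested.

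The rises in heart came from Mapt, Dcx and Dclk1. Mapt 1424719_a_at had 7.27 and 7.88 in adult heart, against 5.22, 6.24 and 5.03 in pup heart (4.22-fold higher, adjusted p = 0.013), and Mapt 1424718_at had 10.82 and 10.68 in adult heart, against 9.75, 9.30 and 9.83 in pup heart (2.18-fold higher, adjusted p = 0.0189). Both calls ended when either adult heart replicate was left out. That of 1424718_at also ended with the first technical array alone and with only the groups compared in the fit. On 1424719_a_at the pup heart values lay below 7.59, the lower quartile of pup heart arrays, so its fold rests on dim values. Mapt 1455028_at did not share the rise, with a difference of -0.40 (adjusted p = 0.307). Dcx 1448974_at rose 2.86-fold (10.56 and 10.65 in adult heart, against 9.20, 9.12 and 8.95 in pup heart, adjusted p = 0.00465). Dclk1 1424270_at rose 2.29-fold (adjusted p = 0.0131), a call that ended when either adult heart replicate was left out. It also ended with each adult array as a sample, with the first technical array alone and with only the groups compared in the fit. Its technical arrays of adult heart replicate 2 lay 1.55 apart, at 11.14 and 12.69. Markers of autonomic neurons and Schwann cells, which run in heart nerves, were higher in 0 of 7 genes and lower in 1 (10.9% of all genes were higher and 9.70% lower). Their mean level was 11.53 to 11.59 in adult heart, against 11.55 to 11.58 in pup heart. Of these 7 genes 0 were called between hippocampus and heart at either age (20.7% of all genes were called in adults and 15.5% in pups). On the most variable probe set of a gene, 1 was higher and 1 lower with age in heart. On that choice 1 was higher and 1 lower in adult hippocampus than in adult heart. Between pup tissues 0 were higher and 1 lower in hippocampus, and the share of all genes on that choice was not counted. The part of these markers in the rises was not tested.

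The age difference itself was compared between the tissues, as the difference in hippocampus minus that in heart. It was lower for 10 of the 34 probe sets and higher for 0, from 8 genes, where 2.37% of all probe sets were lower and 1.18% higher, 3.55% in either direction. The median was -0.78 over the 34 and 0.02 over all probe sets. For Dpysl5 1449290_at it was -4.47 (SE 0.48, adjusted p = 0.00342), where adults were 10.9-fold lower in hippocampus and differed by 1.03 in heart without passing. For Stmn2 it was -4.05 and -4.29, for Mapt -3.83 and -3.01, for Dcx 1418139_at -3.16, for Map2 1434194_at -2.94, for Dpysl3 1454613_at -2.92, for Crmp1 -2.31 and for Dclk1 1436659_at -1.88. The probe sets of Stmn1 did not pass (0.68 and -0.78, adjusted p = 0.46 and 0.365), nor did Map1b 1421851_at (1.55, adjusted p = 0.089). With any adult sample left out, a single sample remained in its group. Fewer member probe sets were then called, and fewer of all probe sets too. Over all alternatives the difference ranged from -4.80 to -4.13 for Dpysl5 1449290_at and from -2.22 to -1.53 for Dclk1 1436659_at.

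Cell type markers gave the surroundings of these falls in hippocampus. Of 10 markers of immature neurons 6 were lower (7.70% of all genes were lower and 8.26% higher) and 1 (Eomes, known for intermediate progenitors) higher in adults, with a mean level of 10.28 to 10.47 in adult hippocampus, against 12.27 to 12.49 in pup hippocampus. Of 10 markers of mature neurons 2 were lower and 1 higher, at 12.69 to 12.76 in adult hippocampus and 12.79 to 12.96 in pup hippocampus. Of 9 oligodendrocyte markers 2 were higher and 0 lower, at 11.35 to 11.67 in adult hippocampus, against 10.65 to 10.98 in pup hippocampus. These counts depend on the probe set taken for a gene. On the most variable probe set, markers of immature neurons were lower in 9 and higher in 1. Those of mature neurons were lower in 4 and higher in 0 (median difference -1.40, against -0.22 on the brightest). Those of oligodendrocytes were higher in 4 and lower in 0. This choice favours probe sets that differ between groups, and the share of all genes called on it was not counted. The part of the marker shifts in the member results was not tested. Without pup hippocampus replicate 1, whose heart muscle markers were highest, 13 member probe sets were called between the hippocampus groups, as many as with it. Over all probe sets the count was 4696 without it, against 6709 with it. The other pup replicates also lay above both adult samples on these markers (10.39 and 9.48, against 9.04 and 9.16). The part of heart tissue in the member results was not tested.

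Closely related genes were counted on their brightest probe set. In adult against pup hippocampus 7.70% of all genes were lower and 8.26% higher on this count. Of 11 relatives of the members 3 fell and 1 rose in adult hippocampus, with a median difference of -0.27, against 0.09 over all 18193 genes. Map6, a microtubule stabilizer, fell 6.03-fold (9.08 and 8.68 in adult hippocampus, against 11.54, 11.59 and 11.29 in pup hippocampus), Stmn4 4.73-fold and Dpysl2, the founding collapsin response mediator, 2.89-fold. Map1s, of the family of Map1b, rose 2.15-fold (9.91 and 9.78 in adult hippocampus, against 8.97, 8.67 and 8.57 in pup hippocampus). Between pup tissues 5 of the 11 relatives were higher in hippocampus and 0 lower (8.24% of all genes were higher). Of 16 genes of kinases that act on tau, Dcx or the collapsin response mediators, 4 fell and 1 (Ttbk2, a tau tubulin kinase) rose, and those that fell included the Cdk5 activators Cdk5r2 (4.13-fold) and Cdk5r1 (3.68-fold). Of 10 genes of neuronal migration and the reelin pathway 4 fell and 0 rose, among them the reelin receptor gene Lrp8 (difference -2.75) and Reln itself (-2.04).

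Other genes of the microtubule system were counted against the same shares of all genes, 7.70% lower and 8.26% higher. Of 17 plus-end binding proteins 2 fell (Clasp1 by a difference of -3.07 and Mapre1, which encodes EB1, by -1.86) and 1 (Nav3) rose, which is near those shares. Of 15 neuronal motor genes 3 fell (Dync1i2, Kif5c and Klc1) and 0 rose, and Kif5c, a neuronal kinesin heavy chain, had 11.96 and 12.40 in adult hippocampus, against 14.57, 14.03 and 14.14 in pup hippocampus. Of 10 severing and minus-end proteins 2 fell (Camsap1 and Spast) and 0 rose, and of 9 further microtubule-associated proteins Tppp, a tubulin polymerizing protein of oligodendrocytes, rose by 1.78 and 0 fell. In heart, the 11 relatives had 1 gene lower (Dpysl2, -2.19) and 1 higher (Dpysl4), where 9.70% of all genes were lower and 10.9% higher.

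Genes with the most similar profile were sought over the 4 group means, each profile centred on its own mean, among 18183 genes that are no members. For Mapt, on its brightest probe set 1424718_at, these were Bcan (root mean square difference 0.07), Camk4 (0.20) and Tspoap1 (0.21). Bcan, which encodes the brain matrix protein brevican, averaged 12.68 in adult hippocampus, 15.22 in pup hippocampus, 10.27 in adult heart and 9.09 in pup heart. For Dcx the brightest probe set was 1418140_at, whose groups did not differ past the threshold in any comparison, and its neighbours were Pdcd11 (0.02), Hbegf (0.03) and Piga (0.04). On Dcx 1418139_at, chosen for this purpose after its values were seen, they were Rac3 (0.17), Cmip (0.21) and Tspan13 (0.22). Rac3, a small GTPase of neurons, averaged 9.78 in adult hippocampus, 12.67 in pup hippocampus, 9.16 in adult heart and 9.14 in pup heart. For Crmp1 the nearest gene was Miat (0.06), a noncoding RNA, for Stmn2 1423280_at Rundc3b (0.18) and for Stmn1 1415849_s_at Arglu1 (0.06).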

How the data were processed

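Expression was measured on single-colour Affymetrix mouse genome arrays. The deposited values were log2 expression of probe sets, for which the authors summarized probes by the upper decile with RMA 2.0, per the methods and the submitters' processing notes. Background correction was not given in the sources used here, and the scaling described in the methods was not present in the values, which ran from 2.67 to 16. The number of arrays limits the precision. Technical arrays were averaged, giving 10 samples, grouped by their titles, and 64 array controls were left out. All 45037 remaining probe sets, of which 34945 named 1 gene, entered a limma fit (version 3.58.1, R 4.3.3) with a mean per group (6 residual degrees of freedom, 3.73 prior). For 5 contrasts p-values were two-sided and Benjamini-Hochberg adjusted over all probe sets, with 0.05 as the threshold, and every adjusted p given is from this fit. "Rose", "fell", "higher" and "lower" refer to results past it where a count or call is given. The median SE was 0.336 for age and 0.301 and 0.368 between pup and adult tissues. The fit was tested on simulated data. Genes of the lists were represented by their brightest probe set, and up to 4 called genes of a list were named. Eomes was named after its values were seen. The members and lists were chosen with earlier results of these data known. Same-numbered pup samples of both tissues had deviations correlated by 0.197, -0.0843 and 0.00633. With so few samples per group this cannot show whether same-numbered samples came from the same pup. The tissues were compared unpaired. Alternatives were 10 fits leaving out 1 sample and 11 others.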

Additional observations from a re-analysis of the deposited data

Results flagged for a closer look

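The age difference differed between the tissues for 10 probe sets, by the interaction term of the limma fit. Given as the difference in hippocampus minus that in heart, the values were -3.164 for Dcx 1418139_at, -3.828 and -3.009 for Mapt 1424718_at and 1455028_at, -2.935 for Map2 1434194_at, -4.051 and -4.292 for Stmn2 1423280_at and 1423281_at, -2.313 for Crmp1, -2.919 for Dpysl3 1454613_at, -4.468 for Dpysl5 1449290_at and -1.876 for Dclk1 1436659_at. The calls of Dpysl5, of both Mapt probe sets and of Stmn2 1423280_at held in every fit with a sample left out. Those of the other 6 ended in 2 to 7 of the 10 such fits, for Map2 1434194_at in 7 of them. No group held the 4 samples needed to look for a single outlying sample.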

How the results depend on the processing

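With the methods' t-test the called member probe sets numbered 8 between hippocampus groups, 0 between heart groups, 0 between adult tissues and 11 between pup tissues. Over all probe sets this test called 1887, 1, 1 and 1938 in that order, so almost none passed between heart groups or adult tissues. At an unadjusted p under 0.05 of this test the members numbered 21, 8, 16 and 17, against 13384, 10025, 14007 and 9681 over all. At the false discovery rate of 0.1% of the methods the t-test called 0 probe sets in each comparison. Limma called 6, 0, 4 and 12 members at that rate, against 187, 407, 1020 and 1503 over all probe sets. Between heart groups 3 member probe sets were called with the first technical array alone and 3 with only the groups compared in the fit, against 6. Over all probe sets these counts were 7717 and 4557, against 9011. Leaving out each sample in turn gave 9 to 16 calls between hippocampus groups, 2 to 9 between heart groups, 8 to 16 between adult tissues, 15 to 16 between pup tissues and 4 to 10 for the difference between the age differences. The lowest heart count, 2, was without adult heart replicate 2, with 3 without replicate 1, and the lowest count between adult tissues, 8, was without adult heart replicate 1, with 9 without either adult hippocampus replicate. Without adult hippocampus replicate 1 the counts between hippocampus groups and for the difference between the age differences were 9 and 4. With each adult array as a sample, as the source names number them, the calls numbered 15 between hippocampus groups, 8 between heart groups, 17 between adult tissues, 15 between pup tissues and 12 for the difference between the age differences. No called member probe set changed sign under any alternative. With the replicate number as a block the calls numbered 15, 7, 13, 15 and 10 in that order, where they were 13, 6, 14, 15 and 10 without it, and over all probe sets the block moved the hippocampus count to 4422, against 6709 without it. Taking the most variable probe set of a gene in place of the brightest moved 15 of the 35 list counts by over 1.5 times. For relatives of the members in hippocampus the counts became 3 higher and 5 lower. For plus-end binding proteins there they became 0 higher and 6 lower, with no share of all genes counted on that choice. The causes of these changes were not tested. The number of arrays, a ceiling near 16 and the absence of detection calls limit all values.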
